A study of Rattus norvegicus with 9 samples.

Results

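The respiratory chain of mitochondria was followed in the spinal cord of rats with neuropathic pain through the transcripts of its subunits, which come from the mitochondrial and from the nuclear genome. Rows of the expression table were taken whose gene name begins with Mt-, or with the stem of a subunit of complexes I to V (Nduf, Sdha to Sdhd, Uqcr and Cyc1, Cox4 to Cox8, Atp5). Each row had to average 1 TPM or more over all 9 samples, TPM being read numbers corrected for transcript length and brought to a total of 1000000 per sample. By this rule 105 of the 34890 loci in the table were members, 13 of them mitochondrially encoded and 92 nuclear. Another 7 loci had a matching name but a mean under the limit. All animals were wild-type male Sprague Dawley rats, and tissue came from the operated side of spinal segments L3-L6. The JA group was sham-operated and received saline by mouth. The SNI group, with spared nerve injury, had 2 of the sciatic nerve's branches, the tibial and the common peroneal, tied and cut while the sural branch was kept, and also received saline. The PLM group had the same injury and received paeoniflorin together with liquiritin, 2 plant compounds, at the middle of the study's doses for 21 days. The paeoniflorin solution held 20.65 mg/ml in every PLM label, while the liquiritin value was 3.98, 3.99 and 3.100 mg/ml in the labels of replicates 1, 2 and 3. The study's methods state the same dose for the whole group, so these label values are uncertain and are not read as different doses. Each group had 3 samples labelled as biological replicates, with the number of animals behind a sample not stated, and no sham-operated group with the drugs was analysed here.

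Complex I (NADH dehydrogenase), complex III (cytochrome bc1) and complex IV (cytochrome c oxidase) pass electrons to oxygen and pump protons out of the matrix, and complex V (ATP synthase) uses the returning protons to make ATP. Each of these holds core subunits made inside the mitochondrion together with many subunits imported from the cytosol, whereas complex II (succinate dehydrogenase) is built from nuclear genes alone. Neurons depend heavily on this machinery, and the spinal cord also holds glia with their own mitochondria.

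The samples were bulk tissue, in which fewer cells of a type and less RNA per cell cannot be told apart. The submitters' notes name a human genome build, GRCh38.p13, while the loci carry rat Ensembl identifiers, so the reference behind the TPM is uncertain. Markers of neurons, oligodendrocytes, astrocytes and microglia were present in every sample, with none of the listed genes at 0 throughout. Summed astrocyte markers lay between 3441 and 3821 TPM in SNI, between 1614 and 1978 in PLM and between 1969 and 3946 in JA. Summed Schwann cell markers varied more within groups than between them, from 133 to 8033 TPM in JA. Marker genes of skeletal muscle, the tissue that Cox6a2 and Cox8b are known for, summed to 157 TPM in SNI replicate 1 and to between 25.3 and 44.4 in the other 8 samples.

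The mitochondrial genome supplied a large share of all measured transcripts. Its 13 subunits took 25.3%, 32.8% and 29.3% of all TPM in the JA samples, 23.7%, 26.1% and 24.1% in SNI and 32.8%, 31.3% and 31.9% in PLM. The lowest PLM sample exceeded the highest SNI sample, while the JA samples overlapped with both. The 92 nuclear members took between 3.03% and 3.76%, with all 3 groups overlapping. The mean share of the mitochondrially encoded subunits was 29.1% ± 3.75 (SD, n = 3) in JA, 24.6% ± 1.303 in SNI and 32.0% ± 0.768 in PLM.

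Among the mitochondrially encoded subunits, levels on the TPM scale, which is per transcript length, spread over a wide range. Mt-atp8, a small membrane subunit of ATP synthase, led the whole table with a mean of 63699 TPM over the 9 samples. It was followed by Mt-co1 (50890 TPM), Mt-co3 (38531 TPM) and Mt-co2 (26207 TPM), which form the catalytic core of cytochrome c oxidase. The complex I genes were lower, from 14040 TPM for Mt-nd3 to 4914 TPM for Mt-nd4. Mt-nd6, the only subunit read from the other strand of the mitochondrial DNA, had the lowest mean, 2051 TPM. Of the 12 most abundant rows of the table, 11 were mitochondrially encoded subunits. Mt-atp8 and Mt-atp6, and likewise Mt-nd4l and Mt-nd4, share a transcript and overlap, so the division of reads within these pairs depends on the counting. Whether counting used the strand, and how reads shared with nuclear copies of mitochondrial DNA were placed, was not given in the sources used here.

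**Figure D1:**
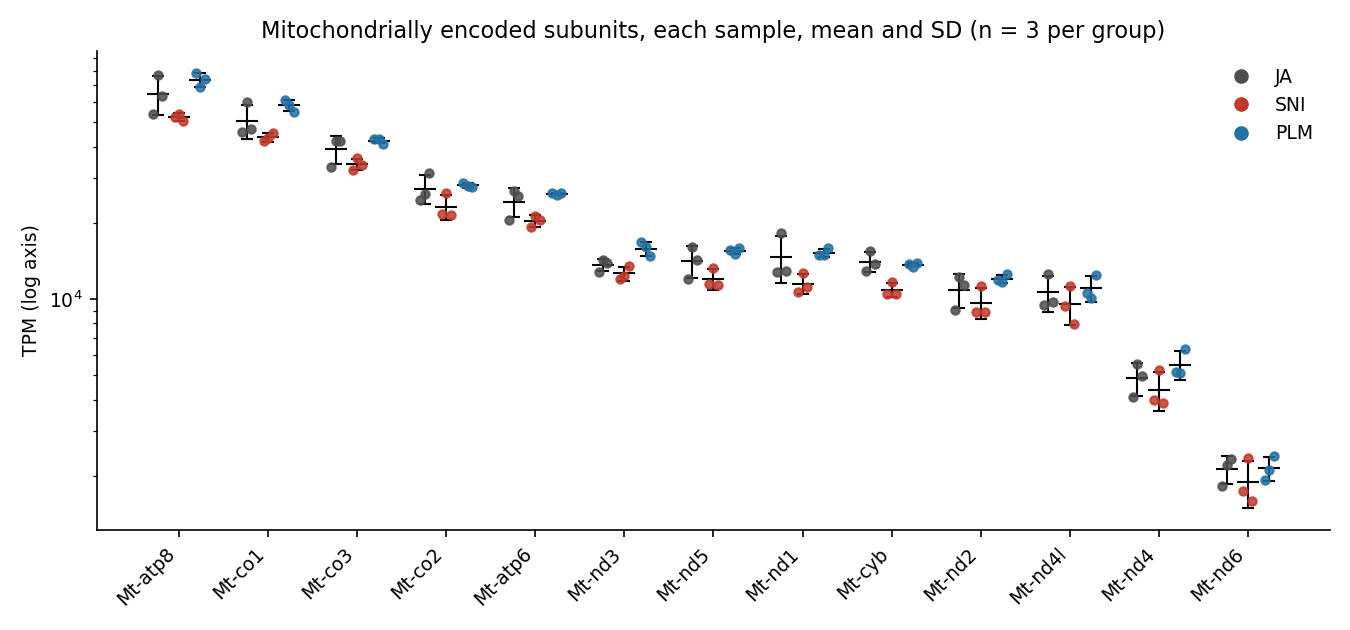
TPM (log axis) of the 13 mitochondrially encoded subunits, ordered by mean level. Each point is a sample, and the bars give the mean and SD of 3 samples in JA (grey), SNI (red) and PLM (blue). PLM points lie above all SNI points in 10 of the 13 genes, the exceptions being Mt-nd4, Mt-nd4l and Mt-nd6.

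The comparison of PLM with SNI asked what the drug combination changed in injured animals. All 13 mitochondrially encoded subunits had a higher mean in PLM, by 0.19 to 0.49 on the log2(TPM + 1) scale with a median of 0.33 (of all loci, 15% were above 0). In limma with Benjamini-Hochberg adjustment over 15474 loci, 8 of the 13 rose (adjusted p under 0.05), against 0.246% of all loci tested that were called higher. These were Mt-atp8, Mt-atp6, Mt-co1, Mt-co3, Mt-cyb, Mt-nd1, Mt-nd3 and Mt-nd5, with fold changes of mean TPM between 1.24 and 1.41. PLM and SNI samples did not overlap in 10 of 13, against 1.59% of all loci without overlap in this direction.

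Mt-co1, which holds the site where oxygen is reduced, measured 42037, 43167 and 45455 TPM in SNI and 61054, 58748 and 55125 TPM in PLM. All PLM samples were above all SNI samples, and the JA values of 45613, 59909 and 46901 TPM spanned the gap. Its log2 fold change was 0.42 (SE 0.069, limma adjusted p = 0.021). Mt-atp8 measured 52552, 54145 and 50571 TPM in SNI and 78460, 68790 and 74211 TPM in PLM. This was the widest separation of the 13 genes, with a log2 fold change of 0.49 (SE 0.073, limma adjusted p = 0.017). Its overlapping partner Mt-atp6 moved from 19200, 21343 and 20481 TPM to 26260, 25855 and 26251 TPM, and the PLM samples were nearly level with each other. The log2 fold change of Mt-atp6 was 0.36 (SE 0.062, limma adjusted p = 0.023).

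Mt-cyb encodes cytochrome b, the mitochondrially made subunit of complex III, and measured 10495, 11627 and 10464 TPM in SNI and 13762, 13442 and 13830 TPM in PLM. No values overlapped, and the log2 fold change was 0.33 (SE 0.063, limma adjusted p = 0.028). In complex I, Mt-nd1, a proton-pumping membrane subunit, measured 10617, 12657 and 11188 TPM in SNI and 14876, 14991 and 15910 TPM in PLM. Its groups were also apart (log2 fold change 0.41, SE 0.080, limma adjusted p = 0.029). Mt-co3, Mt-nd5 and Mt-nd3 changed by 0.31, 0.37 and 0.33 on the log2 scale.

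The other 5 genes did not pass the test. Mt-co2 and Mt-nd2 had no overlap between PLM and SNI, with log2 fold changes of 0.29 and 0.32 (limma adjusted p = 0.076 and 0.078). Mt-nd4, Mt-nd4l and Mt-nd6 overlapped because of SNI replicate 2, in which Mt-nd6 reached 2350 TPM against 1740 and 1589 TPM in the other SNI samples. The PLM samples of Mt-nd6 were 1921, 2106 and 2389 TPM, so only the highest of them passed that value. Mt-nd4 had a log2 fold change of 0.34 (SE 0.14), Mt-nd4l of 0.22 (SE 0.14) and Mt-nd6 of 0.19 (SE 0.16). Ratios within the mitochondrial genome overlapped between all groups, with Mt-atp8 to Mt-atp6 at 2.67, 2.58 and 2.83 on average in JA, SNI and PLM, and Mt-nd6 to Mt-nd5 at 0.151, 0.156 and 0.138.

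These calls depended on single libraries and on the scaling. Without SNI replicate 1, PLM replicate 1 or PLM replicate 2 none of the 13 was called, without SNI replicate 3 or PLM replicate 3 only 2, and without SNI replicate 2 there were 9. The call of Mt-nd3 was lost whichever library was left out (limma adjusted p from 0.056 to 0.14). With no filter on low TPM, or with all 9 samples in the same fit, the count of the 13 that were called was 0. TPM sum to a fixed total, and the median of all loci tested was -0.21 in this comparison. Centring each sample on its median shifted all log2 fold changes up by 0.25. On that scale the 13 had a median of 0.58, all were above 0 (all loci, 57.6%) with unadjusted p under 0.05 (all loci, 10%), and none passed the adjusted threshold (limma adjusted p from 0.055 to 0.23), which 0.129% of all loci passed on the higher and 0.685% on the lower side. Quantile normalization, which gives each rank the same value in every sample, left a median of 0.08 and no call.

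The direction of the nuclear subunits depended on the scaling. Of the 92, 9 fell and 0 rose in PLM against SNI as deposited (9.78% called lower), against 13.6% of all loci called lower. Their median log2 fold change was -0.09, less negative than the -0.21 of all loci, and 19 of 92 were above 0. After median-centring the nuclear median was 0.16 with 76 of 92 above 0, and after rescaling TPM without the mitochondrial rows it was 0.06, so the sign of the nuclear median flipped with the scaling, and neither scaling left any of the 92 called (all loci after rescaling, 0.0997% higher and 1.66% lower). With a library left out, 8 were called without SNI replicate 2 and none without any of the other 5, and the count was 5 with no filter on low TPM and 0 with all 9 samples in the same fit. The calls of Ndufs1, Atp5pb and Cox6a2 were lost whichever library was left out. Of the 92, 18 had an unadjusted p under 0.05 in limma after centring, 17 of them higher (all loci, 10% higher and 6.89% lower). PLM and SNI samples did not overlap in 24 nuclear members on the lower side (all loci, 41.9%) and in 1 on the higher side (all loci, 1.59%), Cox6c, a small subunit of cytochrome c oxidase.

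**Figure D2:**
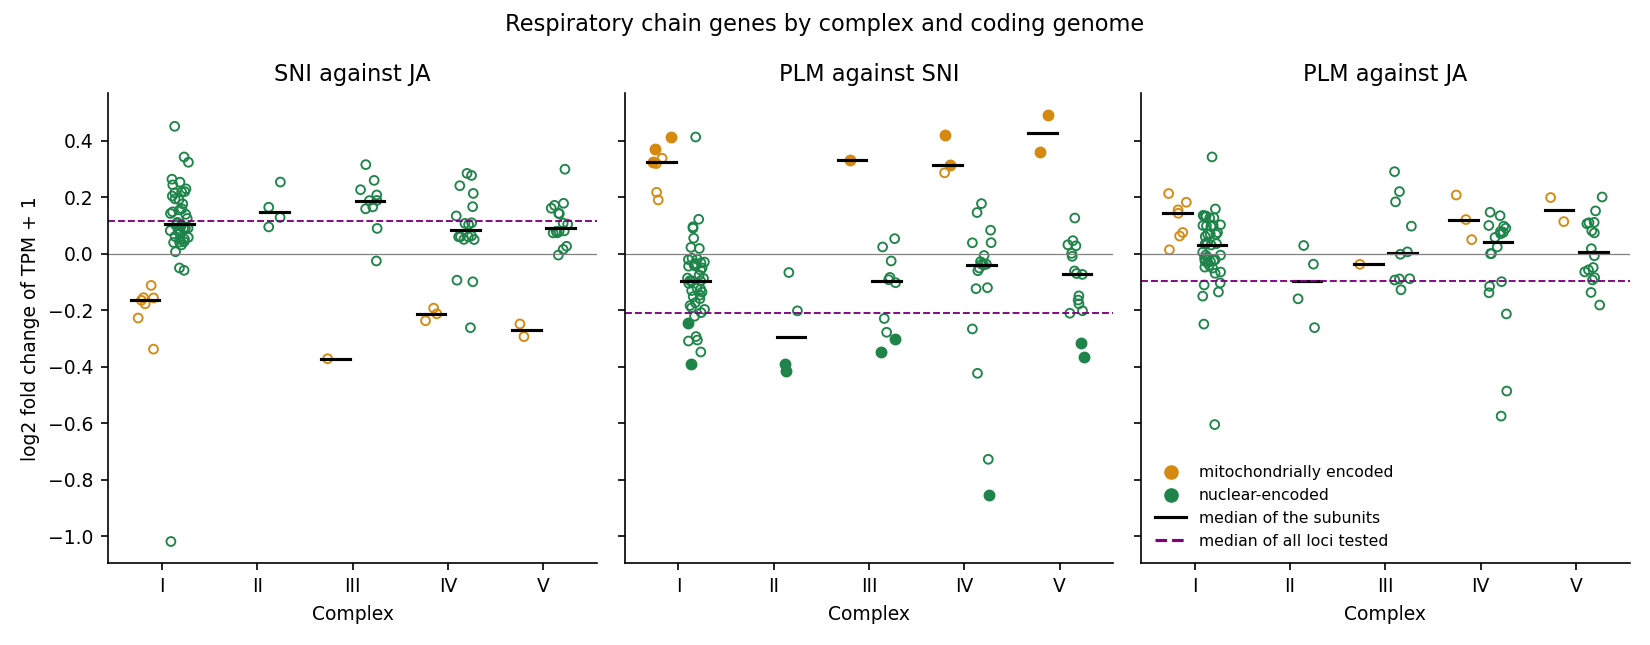
Log2 fold change of TPM + 1 for each member by complex in the 3 comparisons, mitochondrially encoded genes in orange and nuclear ones in green. Filled points passed limma with adjusted p under 0.05, black bars are medians and the dashed line is the median of all loci tested. In PLM against SNI all orange points are above 0 and all nuclear medians are below 0 as deposited, a sign that median-centring turned in all complexes but II. In SNI against JA all orange points are below 0 on this scale.

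The 9 nuclear subunits that fell were spread over all 5 complexes. After median-centring 8 of them lay between -0.60 and -0.05 and Ndufs4 at 0.00. In complex II these were Sdha, the flavoprotein that binds succinate, and Sdhc, a membrane anchor. Sdha measured 194, 166 and 173 TPM in SNI and 131, 135 and 132 TPM in PLM. The groups were well apart, and the JA samples of 169, 145 and 133 TPM reached from the PLM to the SNI range (log2 fold change -0.41, SE 0.071, limma adjusted p = 0.023). Sdhc measured 240.4, 217 and 232 TPM in SNI and 179.9, 179.1 and 166 TPM in PLM, again without overlap (log2 fold change -0.39, SE 0.063, limma adjusted p = 0.020). The iron-sulfur subunit Sdhb, the most abundant of the complex, measured 250.3, 234 and 264 TPM in SNI and 253, 243 and 219 TPM in PLM. Here the groups overlapped, and the ratio of Sdha to Sdhb was lower in PLM (0.516, 0.557 and 0.605) than in SNI (0.776, 0.709 and 0.654) without overlap. This ratio does not move with the scaling of a sample. It sets the gene of the complex with the largest fall against the one with the smallest, so it adds no separate support. The summed TPM of the 4 complex II genes was 835, 765 and 814 in SNI and 688, 687 and 649 in PLM, and the PLM samples were the lower ones also when TPM were rescaled without the mitochondrial rows.

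In complex I, Ndufs1, the largest subunit of the matrix arm that carries iron-sulfur clusters, measured 116, 99.8 and 95.9 TPM in SNI and 77.0, 84.2 and 75.8 TPM in PLM. It fell by 0.39 on the log2 scale (SE 0.089, limma adjusted p = 0.040). All 7 nuclear core subunits of complex I were below 0, with a median of -0.21 that equals the median of all loci, and their 29 accessory loci had a median of -0.09. After median-centring these medians turned to 0.04 and 0.16. Ndufs4, an accessory subunit near the NADH-oxidising end, went from 95.0, 91.7 and 96.3 TPM to 77.8, 83.7 and 77.0 TPM and was called as well (limma adjusted p = 0.042). Ndufa3, the most abundant nuclear subunit of the complex, overlapped between groups at 683 ± 103 TPM in SNI and 669.9 ± 59.3 in PLM (SD, n = 3). Among the subunits with a higher mean in PLM the smallest p was that of Ndufa5 (0.12, SE 0.070, limma adjusted p = 0.24).

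In complex III, Uqcrc2 and Cyc1 fell. Uqcrc2, a core protein on the matrix side, measured 169.5, 165 and 173 TPM in SNI and 138, 132 and 128 TPM in PLM (log2 fold change -0.35, SE 0.055, limma adjusted p = 0.019). Cyc1, the cytochrome c1 heme protein, measured 227, 207 and 234 TPM in SNI and 181, 188 and 172 TPM in PLM. Neither gene had any overlap. Uqcr11, the most abundant of the 10 nuclear loci of complex III, measured 633 ± 40.4 TPM in SNI and 597 ± 33.4 in PLM, with overlap. Of the 2 loci named Uqcrb, the more abundant had a log2 fold change of 0.05 (limma adjusted p = 0.54).

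In complex V, Atp5pb, a part of the peripheral stalk, measured 174, 191 and 169.8 TPM in SNI and 133, 149.7 and 133 TPM in PLM. It was called lower (log2 fold change -0.36, SE 0.075, limma adjusted p = 0.034), as was Atp5f1a, the alpha subunit of the catalytic head, with means of 528 ± 36.1 and 424 ± 16.3 TPM (limma adjusted p = 0.035). The other 6 stalk and membrane genes overlapped between the groups, among them Atp5me, which at 1444 ± 69.7 TPM in SNI and 1477 ± 44.8 in PLM was the most abundant nuclear gene of the complex, and Atp5mf (log2 fold change 0.05). The median of the 7 stalk and membrane genes was 0.00 as deposited and 0.25 after median-centring, and that of the 5 head genes turned from -0.20 to 0.05. Atp5if1, the natural inhibitor of ATP synthase, measured 687 ± 58.9 TPM in SNI and 751 ± 74.3 in PLM, with overlap.

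**Figure D3:**
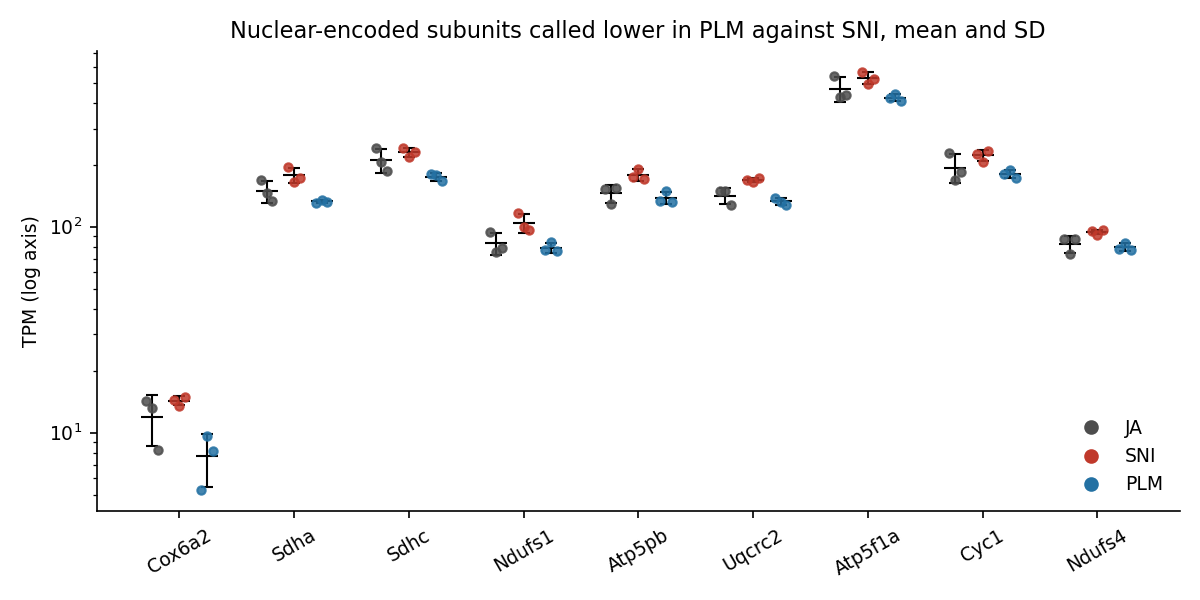
TPM (log axis) of the 9 nuclear subunits called lower in PLM against SNI (limma adjusted p under 0.05), ordered by log2 fold change. Each point is a sample, with the mean and SD of 3 samples. In each gene the PLM points (blue) lie under all SNI points (red). JA points (grey) reach into the SNI range in 5 genes and stay under it in Ndufs1, Ndufs4, Uqcrc2 and Atp5pb.

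Promoter sequences were looked at for the motifs of NRF1, GABP and YY1, the transcription factors best known for nuclear respiratory genes. The RefSeq promoters (GRCr8 build, 250 bases before to 50 bases after the start) matched 78 of the 90 nuclear gene symbols. The letters searched on both strands were GCGCA, any base and GCGC for NRF1, CCGGAAG for GABP and AAGATGGCG for YY1. NRF1 letters were in 19.2% of member promoters and 4.25% of all 33469 promoters, GABP letters in 26.9% and 8.75%, and YY1 letters in 12.8% and 1.73%. Any of them was in 40 of 78, or 51.3%, against 13.4% of all promoters. The 4 promoters printed here belong to subunits that fell in PLM against SNI. They are shown because Sdha holds NRF1 letters, Uqcrc2 GABP letters and Ndufs4 YY1 letters, while the promoter of Cox6a2, the gene with the largest fall, holds none of them. Capitals mark the motifs on either strand.
Sdha, chr1:30764303-30764602 (plus strand): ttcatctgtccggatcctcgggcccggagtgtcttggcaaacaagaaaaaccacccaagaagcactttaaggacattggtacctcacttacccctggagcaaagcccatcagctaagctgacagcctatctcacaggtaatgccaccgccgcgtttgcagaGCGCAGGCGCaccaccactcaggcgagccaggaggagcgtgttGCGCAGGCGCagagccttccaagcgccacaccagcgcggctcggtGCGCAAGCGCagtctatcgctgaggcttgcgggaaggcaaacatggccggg
Uqcrc2, chr1:184598990-184599289 (plus strand): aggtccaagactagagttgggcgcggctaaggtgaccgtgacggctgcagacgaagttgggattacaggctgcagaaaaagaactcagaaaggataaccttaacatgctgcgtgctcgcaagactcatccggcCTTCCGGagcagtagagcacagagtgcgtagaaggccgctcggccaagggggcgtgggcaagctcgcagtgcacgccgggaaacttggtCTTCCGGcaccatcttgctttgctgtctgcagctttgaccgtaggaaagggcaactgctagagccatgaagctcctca
Ndufs4, chr2:47794865-47795164 (minus strand): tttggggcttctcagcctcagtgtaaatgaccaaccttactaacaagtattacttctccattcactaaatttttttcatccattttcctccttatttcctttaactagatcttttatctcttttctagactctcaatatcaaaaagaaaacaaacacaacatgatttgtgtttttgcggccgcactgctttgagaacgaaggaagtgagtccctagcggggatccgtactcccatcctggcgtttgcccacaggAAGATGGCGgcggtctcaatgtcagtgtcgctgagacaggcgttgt
Cox6a2, chr1:192219667-192219966 (minus strand): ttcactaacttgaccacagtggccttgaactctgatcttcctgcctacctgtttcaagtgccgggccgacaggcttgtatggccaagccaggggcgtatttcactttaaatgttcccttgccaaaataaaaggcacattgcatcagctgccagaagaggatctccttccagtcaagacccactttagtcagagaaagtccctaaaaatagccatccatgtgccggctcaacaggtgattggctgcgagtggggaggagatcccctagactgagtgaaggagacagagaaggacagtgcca
Sdha held 3 NRF1 matches, beginning at -89, -46 and -1 from the start. Uqcrc2 held 2 GABP matches on the reverse strand, beginning at -117 and -28, and Ndufs4 held YY1 letters at 5 bases into the transcript. These matches describe the letters only.

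Cytochrome c oxidase has isoforms that differ between tissues, and the ones known from heart, skeletal muscle or lung were scarce. Cox4i1 was the most abundant nuclear subunit of any complex, at 1598 ± 140 TPM in SNI and 1568 ± 148 in PLM, and its isoform Cox4i2, best known from lung and low oxygen, was at 7.80 ± 1.05 and 8.92 ± 0.392. The Cox4i2 values overlapped between the groups (log2 fold change 0.18, limma adjusted p = 0.25). Cox6a1 measured 1554 ± 105 TPM in SNI and 1503 ± 131 in PLM. Its heart and muscle counterpart Cox6a2 measured 14.5, 13.5 and 14.9 TPM in SNI and 5.24, 9.58 and 8.18 TPM in PLM. All PLM samples were lower, with JA at 14.3, 13.2 and 8.19 TPM, and Cox6a2 had the largest fall of the nuclear members (log2 fold change -0.85, SE 0.19, limma adjusted p = 0.039). After median-centring it was -0.60 (limma adjusted p = 0.17). SNI replicate 1, the library with the high sum of muscle markers, had the middle value of its group. The part of muscle tissue in the Cox6a2 values was not tested.

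Cox8b, the muscle form of Cox8a, measured 17.7 TPM in SNI replicate 1 and 2.41 to 7.48 TPM in the other 8 samples. Cox8a itself measured 1148, 1014 and 1151 TPM in SNI and 988, 941 and 829 TPM in PLM, without overlap but not called (limma adjusted p = 0.084). Cox6b1 was at 698 ± 52.9 TPM in SNI and 669 ± 41.9 in PLM, and its testis form Cox6b2 at 6.98 ± 2.15 and 3.90 ± 1.60. Cox7a1 was the member nearest above the limit, with a mean of 2.75 TPM, followed by Ndufaf4, a complex I assembly factor, with 4.57 TPM. Just under the limit were Atp5md with 0.601 TPM and a further locus named Cox6b1 with 0.446 TPM. Cox7a2l, which helps to join complexes into supercomplexes, was at 234 ± 9.23 TPM in SNI and 229 ± 15.4 in PLM. Ndufa4 (552 ± 41.3 and 567 ± 36.0 TPM) and the hypoxia-linked Ndufa4l2 (7.85 ± 2.23 and 8.71 ± 1.95 TPM) overlapped between SNI and PLM. The c ring of ATP synthase is made from 3 genes for the same mature protein, of which Atp5mc3 led with 751 ± 52.8 TPM in SNI, ahead of Atp5mc2 (449 ± 19.8) and Atp5mc1 (286 ± 15.4).

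**Figure D4:**
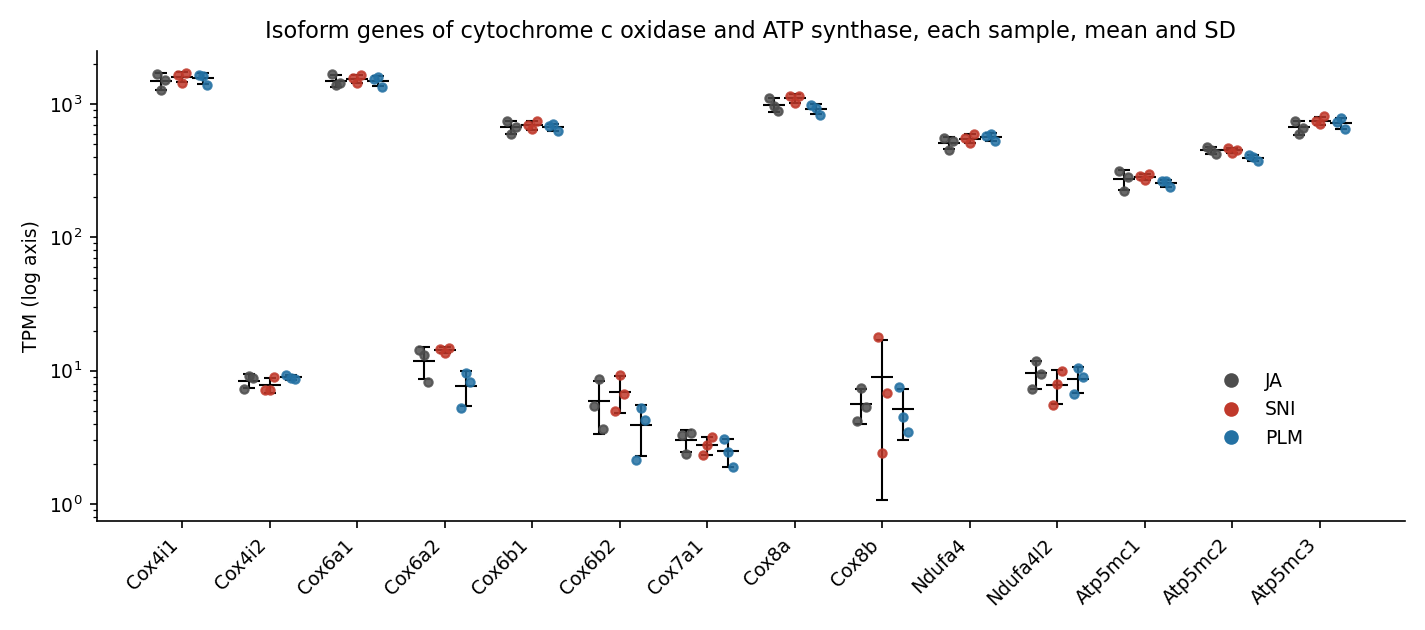
TPM (log axis) of isoform genes of cytochrome c oxidase and of the c ring of ATP synthase, each sample with the mean and SD of 3 samples per group. The tissue forms Cox4i2, Cox6a2, Cox6b2 and Cox8b lie far under their common counterparts, and the high red point of Cox8b is SNI replicate 1.

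The balance between the genomes was read within each sample as the summed TPM of mitochondrially encoded subunits over that of the nuclear members of complexes I, III, IV and V, a ratio that no scaling factor of a sample can move. It was 7.19, 11.1 and 8.79 in JA, 6.69, 7.95 and 6.54 in SNI and 9.49, 8.86 and 10.3 in PLM. The PLM samples all exceeded the SNI samples, and JA spread across both. The mean difference between PLM and SNI was 0.44 on the log2 scale (group SDs 0.11 and 0.15, n = 3). It was 0.40 in complex I, 0.46 in complex III, 0.40 in complex IV and 0.51 in complex V, without overlap between PLM and SNI in any of them. Quantile normalization turned the overall difference to -0.021. These are sums over chosen members and were given no p-value. The ratio of Mt-nd1 to Ndufs1 was 91.3, 127 and 117 in SNI and 193, 178 and 210 in PLM, and that of Mt-co1 to Cox4i1 was 25.5, 29.99 and 26.6 against 36.6, 35.9 and 39.4. Mt-nd1 was called higher and Ndufs1 lower in this comparison, so the gap in their ratio follows from those results and adds no separate support.

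**Figure D5:**
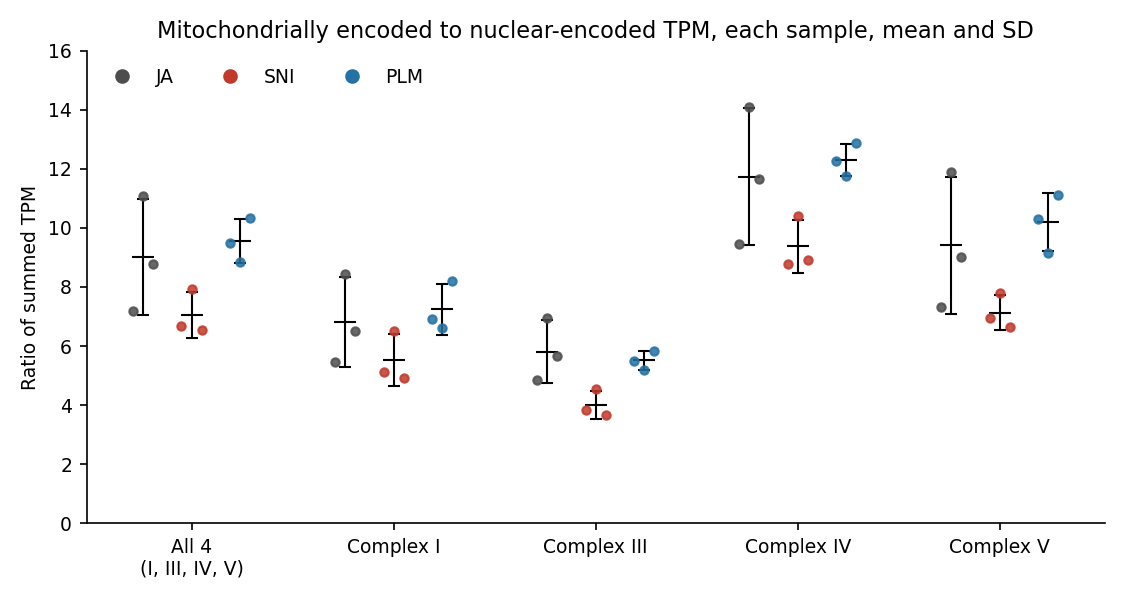
Ratio of summed TPM of mitochondrially encoded to nuclear subunits in each sample, for complexes I, III, IV and V together and singly, with the mean and SD of 3 samples per group. PLM points (blue) lie above all SNI points (red) in each complex, and JA points (grey) spread most.

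The injury itself was addressed by SNI against JA. No member was called, nor was any of the 15557 loci tested (0% in either direction by limma, with 6.11% higher and 0.99% lower at an unadjusted p under 0.05). All 13 mitochondrially encoded subunits had a lower mean in SNI, by 0.11 to 0.37 on the log2 scale with a median of -0.21, against a median of 0.12 for all loci, of which 23.6% were below 0, and they stayed below 0 after median-centring, whereas quantile normalization turned Mt-co2, Mt-co3 and Mt-nd3 above 0. Groups did not overlap in 4 of them, Mt-cyb, Mt-nd1, Mt-atp8 and Mt-co1 (all loci without overlap in this direction, 1.66%). Mt-cyb had JA values of 12929, 15492 and 13788 TPM, all above the SNI samples, and a log2 fold change of -0.37 (SE 0.10, limma adjusted p = 0.61). It was the only one of the 13 with an unadjusted p under 0.05 as deposited, and 2 had one after median-centring (all loci, 3.13% lower). Mt-atp8 was separated by a very narrow margin, since its lowest JA sample had 54149 TPM and its highest SNI sample 54145 TPM. Mt-co1 was also close, with 45613 TPM in its lowest JA sample and 45455 TPM in its highest SNI sample. For Mt-nd1 these values were 12827 and 12657 TPM.

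Of the 92 nuclear members, 84 were above 0 in SNI against JA as deposited (all loci, 76.4%), with a median of 0.11 close to that of all loci, and 43 of 92 after median-centring (all loci, 48.6%), where the nuclear median turned to -0.01. As deposited 6 had an unadjusted p under 0.05, all higher (all loci, 6.11%), and after median-centring 1 was higher and 1 lower (all loci, 1.7% and 3.13%). Samples of 11 did not overlap on the higher side (all loci, 12.1%). The smallest p per complex belonged to Ndufc1 (log2 fold change 0.23), Sdha (0.25), Uqcrc2 (0.26), Cox5a (0.21) and Atp5pb (0.30), each with limma adjusted p = 0.61. Atp5pb, for example, measured 153, 129 and 154 TPM in JA, all below the SNI samples. On the lower side stood the less abundant of the 2 loci named Ndufv3 (ENSRNOG00000027593), at 49.6, 40.9 and 25.2 TPM in JA and 14.0, 10.9 and 36.6 TPM in SNI (log2 fold change -1.02, SE 0.45). These values overlapped, and reads may divide between its loci. Ndufa4l2 (-0.26), Uqcrq (-0.02) and Atp5mc2 (-0.00408) were the other lower genes with the smallest p, while in complex II none of the 4 genes was lower as deposited. The genome ratio differed by -0.34 on the log2 scale (group SDs 0.15 in SNI and 0.31 in JA), with overlap except in complex III (4.83, 6.94 and 5.65 in JA, 3.84, 4.56 and 3.65 in SNI).

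PLM against JA called none of the members, where 0.00652% of all 15349 loci were called higher and 0.013% lower by limma. Of the 13 mitochondrially encoded subunits 12 were above 0 (all loci, 28.8%), with a median of 0.12 against -0.10 for all loci. Mt-cyb was the exception at -0.04 as deposited and 0.09 after median-centring, where all 13 were above 0 (all loci, 56.3%) with a median of 0.25. Mt-nd3 had an unadjusted p under 0.05 as deposited, which none of the 13 had after median-centring, with 12793, 14306 and 13846 TPM in JA and 16760, 16006 and 14737 TPM in PLM. These did not overlap (log2 fold change 0.21, SE 0.088, limma adjusted p = 0.42). The nuclear median was 0.01, and 4 nuclear members did not overlap on each side (all loci, 2% higher and 15.7% lower). An unadjusted p under 0.05 was found for 2 nuclear members on each side (all loci, 1.3% higher and 10.5% lower). After median-centring the nuclear median was 0.14, 79 of 92 were above 0, and 5 were higher and 0 lower at an unadjusted p under 0.05 in limma (all loci, 5.26% and 4.72%). As deposited, those on the higher side were Ndufa5 (log2 fold change 0.34) and Uqcr10 (0.29), and on the lower side Ndufa11 (-0.25) and Sdhc (-0.26). Ndufa5 measured 241, 219 and 277 TPM in JA and 288, 329 and 316 TPM in PLM, with all PLM samples higher. Of the remaining genes with the smallest p per complex, Ndufa4 (0.15), Atp5me (0.11) and Sdhb (0.03) were higher, and Cox6a2 (-0.57), Atp5mc2 (-0.18) and Uqcrq (-0.13) were lower. The genome ratio differed by 0.10 on the log2 scale with overlap. Each group enters 2 of the 3 comparisons, so these share samples and are not independent.

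Genes around the chain were read from 4 lists. Among 34 tested genes of general mitochondrial content (import, metabolite carriers, citric acid cycle, chaperones), 9 fell and 0 rose in PLM against SNI, or 26.5% against 13.6% of all loci. Cs, citrate synthase, measured 139.8, 128 and 124 TPM in SNI and 87.2, 92.7 and 87.3 TPM in PLM (log2 fold change -0.55, limma adjusted p = 0.0091). No value overlapped, and Slc25a5, an ADP/ATP carrier, fell too. The median of this list was -0.24 as deposited and 0.01 after median-centring, where none of its genes was called. Of 41 genes for transcription, RNA processing and translation in mitochondria, 6 fell (14.6%, close to the 13.6% of all loci), which were Lonp1, Supv3l1, Tufm, Polg, Gfm2 and Hsd17b10. After median-centring none of the 41 was called and the list's median turned from -0.21 to 0.04. Lonp1, a matrix protease, measured 45.4, 42.1 and 45.3 TPM in SNI and 35.5, 33.9 and 33.0 TPM in PLM (log2 fold change -0.37, limma adjusted p = 0.023). The higher gene with the smallest p was Mtrf1, a release factor (0.09, limma adjusted p = 0.49). Tfam, which packages mitochondrial DNA, measured 24.7, 23.5 and 24.3 TPM in SNI and 20.4, 22.9 and 22.02 TPM in PLM. It was lower in every PLM sample but not called (limma adjusted p = 0.17).

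Of 37 assembly factors outside the naming rule 3 fell (8.11%, against 13.6% of all loci), which were Tmem70, Sdhaf2 and Cox11. None of the 37 was called after median-centring, which turned the median from -0.19 to 0.06. Tmem70, needed to build ATP synthase, changed by -0.26 as deposited (limma adjusted p = 0.041, and 0.054 to 0.115 with a library left out) and -0.015 after centring, and Cox14, which escorts newly made Mt-co1 protein, by 0.36 (limma adjusted p = 0.15). None of 13 tested regulators of mitochondrial biogenesis was called by limma, and the smallest p belonged to Ppard (-0.30, limma adjusted p = 0.068). All 13 were below 0 with a median of -0.21, where all loci also had a median of -0.21 and 15% of them were above 0. After median-centring 4 of the 13 were below 0. In SNI against JA and in PLM against JA no gene of these 4 lists was called.

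Cell type markers moved in the same comparison. In PLM against SNI 11 of 12 astrocyte markers fell, with a median of -1.35 (all loci called lower, 13.6%). After median-centring 9 still did (all loci, 0.685%). Summed neuron markers were 6416, 5569 and 7106 TPM in SNI and 4941, 5524 and 4744 TPM in PLM, without overlap and with none of 12 called. All 12 were below 0 as deposited, with a median of -0.30, and 7 after median-centring, with a median of -0.05. Summed oligodendrocyte markers were higher in PLM (50582 to 51550 TPM) than in SNI (46848 to 49086 TPM), also with none of 10 called. Mbp, a main protein of myelin, makes up most of that sum, while 6 of the 10 genes were below 0 as deposited, with a median of -0.11, and none was below 0 after median-centring. Of 7 markers of meninges and fibroblasts 2 fell (28.6%, against 13.6% of all loci), Igf2 (-0.68, limma adjusted p = 0.027) and Slc6a13 (-0.55, limma adjusted p = 0.042). The median of this list was -0.58, and neither gene was called after median-centring. The microglial marker Tmem119 was called lower (-0.43, limma adjusted p = 0.038), the only call among 10 genes and lost after median-centring. That is 10% of the list, against 13.6% of all loci. Of the 10 genes 4 were below 0 as deposited, with a median of 0.03, and 1 after median-centring, with a median of 0.28. Summed blood cell markers were 8017 to 11206 TPM in PLM and 4134 to 7284 TPM in SNI, with none of 7 called. In SNI against JA no marker was called. List medians ran from -0.33 for blood cells to 0.64 for skeletal muscle, with 0.47 for neurons and 0.48 for astrocytes (all loci, 0.12). In PLM against JA none was called either, and all 12 astrocyte markers were below 0, with a median of -0.92 (all loci, -0.10). The part of these marker changes in the mitochondrial and nuclear results was not tested.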

How the data were processed

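RNA of L3-L6 spinal cord was sequenced in 9 samples, 3 per group, with an Illumina TruSeq kit. The authors removed adaptors and low-quality reads, mapped with HISAT2 and estimated expression with StringTie, and the submitters' processing notes also name CASAVA and fastp 0.19.5. The deposited unit is TPM, which sums to 1000000 per sample and keeps no read number, so depth is unknown. From it log2(TPM + 1) was computed here and compared with limma 3.58.1 in R 4.3.3 (eBayes with trend) on the loci that averaged 1 TPM or more in the 6 samples compared, with Benjamini-Hochberg adjustment over all loci tested and calls at adjusted p under 0.05. The fit was also run on simulated data with independent noise for each gene and no shift common to all loci. That run therefore does not address the shift of all loci in PLM against SNI. Alternatives were another pseudocount, filter, scaling, sample set or call rule, a replicate block and leaving out each replicate. The named genes were all mitochondrially encoded members, per complex the most abundant nuclear subunit and the lower and higher ones with the smallest p in each comparison, the isoform groups, the 4 loci nearest to the limit, and the lower and higher gene with the smallest p of each pathway list. The remaining nuclear subunits that were called, and those named for a count of 5 or fewer, were added after their values were seen. Members and gene lists were chosen with earlier results of these data known. Promoters are from RefSeq (GRCr8).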

Additional observations from a re-analysis of the deposited data

How the results depend on the processing

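With PLM against SNI, the 8 mitochondrially encoded subunits called higher became 0 with no filter, quantile normalization, median-centring, all 9 samples in one fit, the replicate block or the study's rule (unadjusted p under 0.05 and absolute log2 fold change above 1), and 0 to 9 when a replicate was left out. They were 8 with a pseudocount of 0.1 and 6 with at least 1 TPM asked of every sample. The 9 nuclear subunits called lower became 5 with no filter, 0 with quantile normalization, median-centring, TPM rescaled without the mitochondrial rows, all 9 samples in one fit, the replicate block or the study's rule, and 0 to 8 when a replicate was left out. They were 13 with at least 1 TPM asked of every sample, and 9 without the less abundant loci of Ndufv3 and Uqcrb, an alternative chosen after seeing the data. The cause of these changes was not tested. In SNI against JA and PLM against JA, no alternative with an adjusted p called any member.

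The log2 difference of the genome ratio under quantile normalization was -0.027 for SNI against JA, -0.021 for PLM against SNI and -0.048 for PLM against JA. This alternative gives each rank the same value in every sample, and 11 of the 12 most abundant rows were mitochondrially encoded. With a replicate left out the ratio difference ranged from -0.49 to -0.18, from 0.38 to 0.53 and from -0.048 to 0.26 in these comparisons, the sign of the last turning without JA replicate 1. Quantile normalization turned Mt-co2 (0.063), Mt-co3 (0.025) and Mt-nd3 (0.099) above 0 in SNI against JA. Leaving out a replicate gave ranges across 0 for Atp5mc2 (-0.050 to 0.039) and Uqcrq (-0.093 to 0.024) in SNI against JA, Atp5mf (-0.015 to 0.13) in PLM against SNI and Sdhb (-0.020 to 0.094) in PLM against JA. Of the 232 alternative values of the 16 named results that were called, 0 reversed and 175 missed the threshold.

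Replicate numbers are shared between groups, and the samples were treated as unpaired. Deviations of same-numbered samples correlated at -0.046 to 0.13, and those of differently numbered samples at -0.19 to 0.14. With 3 samples per group, these values cannot show whether samples were handled in numbered sets. With the replicate block 0 members were called in PLM against SNI. Depth, which TPM do not keep, could not be weighed.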
